A study of Mus musculus with 22 samples.

Results

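The epidermal growth factor (EGF) receptor, 5 of its ligand genes or close relatives and the inhibitor that the receptor induces were followed in aortic smooth muscle cells and aortic tissue of mice with and without tenascin C (TNC). The gene set held 8 symbols: the ligands Areg, Ereg, Hbegf, Tgfa, Btc and Nrg1, the receptor Egfr and the feedback inhibitor Errfi1. A gene was represented by the probe set with its symbol alone in the array annotation and, among several such probe sets, by the one with the highest mean signal over the 22 arrays. Of the 18193 genes so represented, 7 were in the set, with 18 probe sets between them. Areg had no such probe set and was not analysed here. All 7 passed the filter on low signal in the cells, which kept 15534 genes.

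EGF-family ligands are made as transmembrane precursors, and proteases of the ADAM family cut them free from the cell surface. The free ligand binds Egfr or a related ErbB receptor, the receptors pair, and the signal runs through adaptor proteins to the ERK kinases, which switch on immediate early genes and, after them, inhibitors of the pathway such as Errfi1. In arterial smooth muscle this receptor is known for relaying growth signals, among them those of angiotensin II, which act through shedding of HB-EGF. TNC, a large matrix glycoprotein made at sites of injury and load, carries EGF-like repeats that have been reported to bind the EGF receptor with low affinity.

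The cells were suprarenal aortic smooth muscle cells dispersed from male C57BL/6 mice that lack TNC (TNC-KO), so every cell group, controls included, lacked a Tnc gene product of its own, and grew in medium with 10% fetal bovine serum, itself a source of growth factors. The 4 groups received nothing (3 arrays), TNF-alpha at 10 ng/mL (TNF, 3 arrays), exogenous TNC at 10 µg/mL (4 arrays), or TNC with TNF (4 arrays), each array from a culture that the design describes as independent. The design gives 24 h of TNF, while the labels of the single arrays give a different time for each, from 23 to 36 h. These times follow the groups: 23 to 25 h untreated, 26 to 28 h with TNF, 29 to 32 h with TNC and 33 to 36 h with both. If they held, time and treatment could not be told apart. The label times were not used. The design does not say whether 1 culture was divided over groups. Titles of the TNC group are ambiguous ("TNC or TNF"), and its treatment label, exogenous TNC, was followed. The 8 tissue arrays held pooled RNA from male C57BL/6 mice, wild type (WT) or TNC-KO, either untreated (5 mice a pool) or given 0.5 M CaCl2 around the infrarenal aorta and angiotensin II at 1 µg/min/kg for 1 week (CaAngII, 8 mice a pool). Suprarenal and infrarenal segments of 10 mm were pooled separately, with 1 array per group and so no error or test. Ages were not given.

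Errfi1, which rose with TNC, and Btc, which fell with it, are shown by their promoters, 250 bases before and 50 after the start in RefSeq on build GRCm38.p6. The table of promoters held entries for Areg, Tgfa, Btc, Egfr and Errfi1 among the 8 symbols. For Errfi1, chr4:150854820-150855119 on the plus strand is the second of its 2 listed starts. Capitals mark a cyclic AMP response element, TGACGTCA, first base at -51, and a TATA box, TATAAA, first base at -28. For Btc, the region is chr5:91402945-91403244 on the minus strand, and it has no capitals because none of the motifs searched was found.
Errfi1: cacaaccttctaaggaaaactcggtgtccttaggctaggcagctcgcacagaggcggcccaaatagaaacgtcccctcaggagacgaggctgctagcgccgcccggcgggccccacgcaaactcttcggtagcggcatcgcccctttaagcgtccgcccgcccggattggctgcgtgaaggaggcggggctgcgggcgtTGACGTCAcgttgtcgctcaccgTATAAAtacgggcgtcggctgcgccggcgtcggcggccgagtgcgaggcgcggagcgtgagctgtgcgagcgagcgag
Btc: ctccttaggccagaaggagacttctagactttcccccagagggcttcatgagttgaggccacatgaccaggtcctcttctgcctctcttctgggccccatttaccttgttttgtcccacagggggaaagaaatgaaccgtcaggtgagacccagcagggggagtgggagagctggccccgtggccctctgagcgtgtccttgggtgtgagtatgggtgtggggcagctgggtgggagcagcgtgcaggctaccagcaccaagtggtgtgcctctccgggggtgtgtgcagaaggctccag
The motifs were searched on both strands, and the response element is present in 1.79% and the TATA box in 13.6% of the 32851 mouse promoters of the same length. The others searched were AP-1 (TGANTCA, 7.81% of promoters), GAS (TTCNNNGAA, 8.3%), the GC box (GGGCGG, 35.7%), and, by name, NF-kB (8.46%) and the CArG box (1.63%). The Errfi1 promoter also holds 3 matches to the GC box, 2 of which overlap. The first listed Errfi1 start had no match to any of them. A match is a stretch of letters and says nothing on whether a factor binds there. On chromosome 5 the genes Epgn, Ereg, Areg and Btc lie next to each other in that order.

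Array medians were 51.01 to 64.61 in the cells and 119.3 to 134.5 in the tissue, while every array had the same mean over the middle 96% of probe sets. Replicate arrays of the cells correlated at 0.962 to 0.969. Tnc, the deleted gene, read 1805 to 2699 in WT pools, 257.5 to 488.7 in TNC-KO pools and 78 to 122.3 as the group means of the cells. Of 8 smooth muscle markers, 5 to 8 were above the array median in the cells. Myh11, smooth muscle myosin, averaged 346.3 untreated and 71.05, 53.84 and 34.44 with TNF, TNC and both, against 8638 to 18980 in tissue. The summed signal of 8 smooth muscle markers was 51910 to 55120 untreated, 25490 to 27990 with TNF, 39340 to 41790 with TNC and 26660 to 29910 with both. The 6 endothelial markers summed to 6515 to 7226 untreated, 7283 to 7832 with TNF, 8727 to 9817 with TNC and 7139 to 7561 with both, with 5 or 6 of them above the array median. The 7 macrophage markers summed to 476.6 to 500.9 untreated, 550.2 to 596.5 with TNF, 1545 to 2472 with TNC and 1480 to 1711 with both. Of these, Cd14 went from 118 to 1433 with TNC, while Ptprc, carried by all leukocytes, was at 9.923 to 16.51. The 5 fibroblast markers summed to 8531 to 10210 untreated, 22340 to 23390 with TNF, 23560 to 25590 with TNC and 27070 to 29340 with both. These sums moved with the groups compared below, and their part in the results was not tested. In bulk RNA, fewer cells of a type and less RNA per cell cannot be told apart.

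Ereg encodes epiregulin, a ligand that binds the EGF receptor weakly and signals for long. It fell with TNF when TNC was absent and rose with TNF when TNC was present. The untreated cultures read 787.1, 610.8 and 716.8 in signal, and those with TNF read 366.1, 500.2 and 464.8. All TNF values were below all untreated ones, a log2 change of -0.67 (SE 0.202, adjusted p = 0.0144). With TNC alone the signals were 762.9, 1002, 1407 and 1185, the lowest of which lay inside the untreated range. Cultures with both read 2002, 2350, 2986 and 1735, above every other array. TNF in the presence of TNC thus gave a log2 change of 1.06 (SE 0.175, adjusted p = 0.000214). The TNF effect differed between cells with and without TNC by 1.74 (interaction, SE 0.268, adjusted p = 0.000142). TNC raised Ereg by 2.34 with TNF (SE 0.189, adjusted p = 6.89e-08), a fold of 5.05, and by 0.60 without it (SE 0.189, adjusted p = 0.0209). The last of these calls was lost without untreated replicate 2 (adjusted p = 0.0968), TNC replicate 3 (0.0665) or TNC replicate 4 (0.0552), and with a variance model without an intensity trend (0.0626). The fall with TNF was lost without untreated replicate 1 (adjusted p = 0.0607) or TNF replicate 1 (0.0765). In order, TNF was lowest, then untreated, TNC and both, and each neighbouring pair differed in limma's test. Ereg had 1 probe set.

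Hbegf encodes heparin-binding EGF-like growth factor, which smooth muscle cells and macrophages make. Its signal was 3965, 4138 and 3960 untreated and 1215, 1027 and 1015 with TNF. The groups were far apart, with a log2 change of -1.89 (SE 0.0971, adjusted p = 7.51e-11), a fall of 3.72-fold. Cultures with TNC alone read 3478, 4490, 3812 and 3224 and overlapped the untreated ones. The difference of -0.11 did not pass the test (adjusted p = 0.387), with a 95% interval of -0.303 to 0.081. With both, the signals were 3117, 3177, 2824 and 3030, all below those with TNC alone and above those with TNF alone. TNF with TNC present gave a log2 change of -0.29 (SE 0.0841, adjusted p = 0.0157), and the interaction was 1.60 (SE 0.128, adjusted p = 9.75e-08). TNC with TNF raised Hbegf by 1.49 (SE 0.0908, adjusted p = 2.45e-09), a fold of 2.8. The second Hbegf probe set gave -1.92 and -0.29 for TNF in the absence and presence of TNC, and -0.18 and 1.45 for TNC in the absence and presence of TNF. On it the small fall with TNF in the presence of TNC had an adjusted p of 0.0785, and centring the arrays on their medians gave 0.101 on the main probe set. The 2 lowest neighbours in order, TNF and both, differed, as did both and TNC, while TNC and untreated did not pass the test.

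Btc encodes betacellulin, a ligand of Egfr and of ErbB4. TNF raised it and TNC lowered it. The signal was 144.3, 103.7 and 137.5 untreated, 297.4, 313.6 and 341.5 with TNF, 53.01, 43.77, 69.62 and 76.63 with TNC and 91.99, 76.37, 100.2 and 67.75 with both. The TNF group was above every other array, and both groups with TNC were below every array without it. TNF without TNC gave a log2 change of 1.32 (SE 0.221, adjusted p = 0.000132). TNC gave -1.10 without TNF (SE 0.206, adjusted p = 0.000492) and -1.93 with it (SE 0.206, adjusted p = 1.94e-06), the latter a fall of 3.81-fold. With TNC present the change with TNF was 0.49 and the groups overlapped (adjusted p = 0.0762). It passed the test without TNC replicate 4 (0.0364) or replicate 4 of the group with both (0.0461). The interaction of -0.83 (SE 0.292) had an adjusted p of 0.0536, which fell to 0.0172 without TNC replicate 2 and to 0.0386 without replicate 3 of the group with both. The second Btc probe set gave 1.41 for TNF without TNC and -1.06 and -2.12 for TNC without and with TNF. The levels with TNC lay near the middle of all probe sets on their arrays, so Btc was dim there.

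Tgfa encodes transforming growth factor alpha, another high-affinity Egfr ligand, and its main probe set moved little. The signals were 826, 940.2 and 950.6 untreated, 789.3, 799.8 and 819.8 with TNF, 722.6, 724.3, 673.4 and 732.5 with TNC and 675.4 to 784 with both. The untreated cultures were the highest. TNC without TNF gave -0.34 (SE 0.0695, adjusted p = 0.00098) on the log2 scale. That call was lost when arrays were centred on their medians, with a change of -0.17 and an adjusted p of 0.193. TNF gave -0.17 without TNC and 0.05 with it, and TNC with TNF gave -0.12, none past the threshold (adjusted p = 0.0863, 0.67 and 0.202). Without untreated replicate 1, the change with TNF alone had an adjusted p of 0.0278. A dimmer Tgfa probe set, with a mean of 45.2 in the cells against 781, gave larger changes, of -1.36 for TNC without TNF (adjusted p = 0.0325) and -1.62 for TNC against TNF (0.013). On the main probe set the latter was -0.17 (adjusted p = 0.0724). The remaining probe set gave -0.38 and -0.21, neither called (0.401 and 0.699).

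Nrg1 encodes neuregulin 1, which binds ErbB3 and ErbB4 rather than Egfr itself. It fell with each factor, and fell further with both. The signal was 924.2, 1062 and 999.5 untreated, 558.8, 618.5 and 575.1 with TNF, 672.8, 490.8, 687.1 and 693.3 with TNC and 279.5, 337.8, 443.3 and 397.1 with both. The untreated cultures were above all others and those with both factors below all others. The TNF change was -0.77 without TNC (SE 0.149, adjusted p = 0.000539) and -0.81 with it (SE 0.129, adjusted p = 0.000155). The TNC change was -0.66 without TNF (SE 0.139, adjusted p = 0.00139) and -0.70 with it (SE 0.139, adjusted p = 0.000981). The interaction was -0.04, with a 95% interval of -0.46 to 0.374 (adjusted p = 0.916). The TNF and TNC groups, neighbours in order, did not differ beyond their spread (log2 0.11, adjusted p = 0.607). Like Ereg, Nrg1 had 1 probe set.

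**Figure D1:**
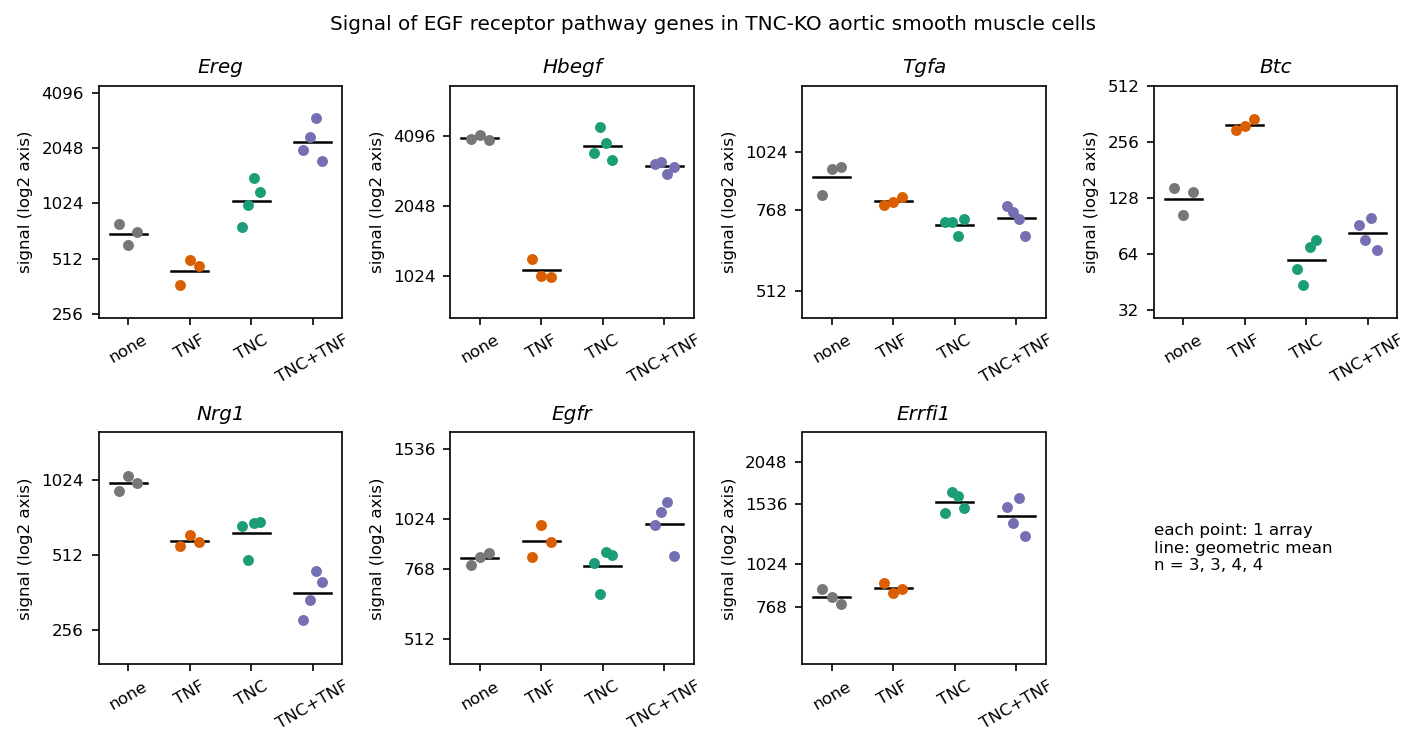
Signal of each gene (vertical axis, log2 scale, not starting at 0 and different in each panel) in the 14 cell arrays by treatment, with 1 point per array and a line at the geometric mean of 3 or 4 arrays. Ereg is highest with both factors (1735 to 2986), Hbegf is lowest with TNF alone (1015 to 1215), Btc is highest with TNF alone (297.4 to 341.5), and Errfi1 is higher in both groups with TNC (1241 to 1662) than in those without (780.9 to 901.1).

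Egfr, the receptor shared by these ligands other than Nrg1, differed little in the cells. It read 784.3, 821.4 and 841.8 untreated, 823.8, 989.5 and 895.8 with TNF, 793.2, 662.8, 846.3 and 832.5 with TNC, and 991.4, 1065, 1127 and 827.6 with both. The group with both factors was highest on average, and its lowest array lay inside the range of every other group. TNF with TNC present gave a log2 change of 0.35 (SE 0.0957, adjusted p = 0.0115). Of the other Egfr probe sets none passed the test for that comparison, the brighter ones giving 0.20 (adjusted p = 0.201) and -0.09 (0.532), so the rise rests on 1 probe set. TNF without TNC gave 0.14 (95% interval -0.0907 to 0.377), TNC without TNF gave -0.06 (-0.283 to 0.155), and TNC with TNF gave 0.15 (-0.073 to 0.364), none past the threshold in limma's test (adjusted p = 0.356, 0.684 and 0.327). In order of level, no neighbouring groups differed.

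Errfi1 encodes the receptor's feedback inhibitor, also called MIG6, which binds the active kinase domain and is itself induced by receptor signalling. It rose with TNC and did not pass the test with TNF. The signal was 864.3, 820.3 and 780.9 untreated and 901.1, 840 and 867.6 with TNF, against 1447, 1662, 1627 and 1495 with TNC and 1503, 1355, 1600 and 1241 with both. Every array with TNC was above every array without it. The log2 change with TNC was 0.92 without TNF (SE 0.0803, adjusted p = 1.21e-07) and 0.71 with TNF (SE 0.0803, adjusted p = 3.97e-06), folds of 1.89 and 1.63. TNF gave 0.08 without TNC (95% interval -0.0996 to 0.264, adjusted p = 0.511) and -0.13 with it (-0.291 to 0.0242, adjusted p = 0.227). The second Errfi1 probe set gave 0.95 and 0.51 for TNC without and with TNF. On that set TNF with TNC present gave -0.46 (adjusted p = 0.0227), so a fall was called on 1 of the 2 probe sets. The promoter shown above with a response element belongs to this gene.

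Counted over the 7 genes, TNF without TNC changed 4 (1 higher, 3 lower). Of all genes tested, 36.2% were called there, 14.9% higher and 21.3% lower. TNF with TNC changed 4 members (2 higher, 2 lower), where 24.6% of genes were called, 11% higher and 13.6% lower. TNC without TNF changed 5 (2 higher, 3 lower), where 33.7% of genes were called, 17.3% higher and 16.4% lower. TNC with TNF changed 5 (3 higher, 2 lower), where 30.5% of genes were called, 17.6% higher and 12.9% lower. TNC set directly against TNF gave 4 calls (3 higher, 1 lower), where 31.2% of genes were called, 19.8% higher and 11.4% lower. Ereg, Hbegf and Errfi1 were higher by 1.27, 1.78 and 0.84 on the log2 scale and Btc was lower by a log2 change of -2.42. Both factors against none gave 7 calls (3 higher, 4 lower), where 44.6% of all genes were called, 21.6% higher and 23% lower. Ereg, Egfr and Errfi1 were higher by 1.66, 0.29 and 0.79, and Hbegf, Tgfa, Btc and Nrg1 gave -0.41, -0.30, -0.61 and -1.47. This count was 4 with arrays centred on their medians. The Egfr call (adjusted p = 0.0311) was lost when any of 6 of the 7 arrays compared was left out, all but replicate 4 of the group with both (adjusted p up to 0.0992). That of Btc (0.0224) was lost without untreated replicate 1 or 3 or replicate 2 or 4 of the group with both (up to 0.0938). The interaction was called for 2 genes, Ereg and Hbegf, both positive, where 20.8% of all genes were called, 11% positive and 9.77% negative. Groups did not overlap for 5 of the 7 members for TNF without TNC and 3 for TNF with TNC, against 50% and 23.3% of all genes. They did not overlap for 4 members for TNC without TNF and 6 for TNC with TNF, against 40.8% and 36%. The counts were 5 for TNC against TNF and 6 for both against none, against 38.6% and 47.4%. Several comparisons share their untreated or TNC arrays, so their counts are not independent. No test was made of a count over the 7 genes against that of all genes.

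**Figure D2:**
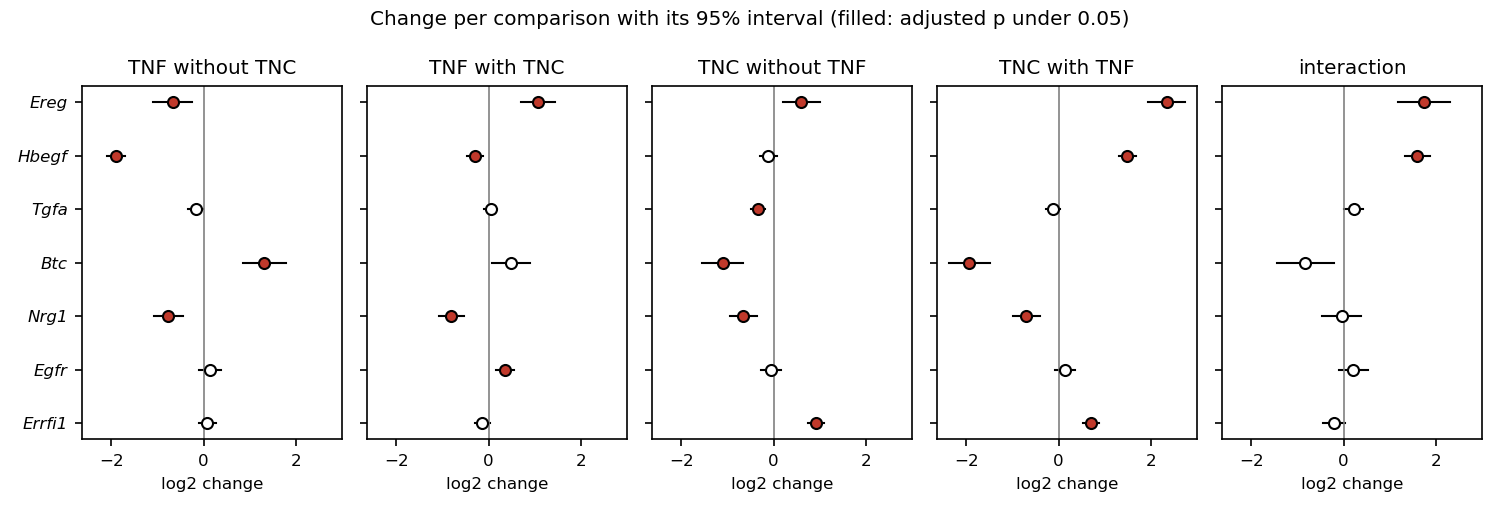
Log2 change of each gene (horizontal axis) in 5 comparisons of the cells, with its 95% interval from limma and filled points for adjusted p under 0.05. Ereg and Hbegf carry the positive interactions (1.74 and 1.60), Btc moves up with TNF alone (1.32) and down with TNC, and Egfr lies between -0.06 and 0.35 throughout.

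The rest of the pathway was described through lists of its parts. Among other EGF-family ligands 4 were tested and none was called in any comparison. These were Egf, Epgn, Nrg2 and Nrg4, all dim in the cells, with group means of 23.29 to 62.58. Of the other receptors, Erbb2 (217.6 to 243.2 over group means) and Erbb3 (29.78 to 41.33) were tested and neither was called, while Erbb4 was at 1.544 to 6.651 and was filtered out.

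Among 11 genes of ligand shedding, TNF without TNC raised 4 and lowered 1, and TNC without TNF raised 5 and lowered 2, where 36.2% and 33.7% of all genes were called. Adam17, the protease that releases most of these ligands, rose with TNF from 1695 to 4053 (log2 1.26, adjusted p = 9.67e-11) and by 0.54 when TNC was present (adjusted p = 1.67e-06). It rose by 0.64 with TNC alone (adjusted p = 3.68e-07). Rhbdf2, the iRhom2 cofactor that Adam17 needs to mature, rose by 1.74 with TNF and 1.90 with TNC, from 85.82 to 276.6 and 307.2 (adjusted p = 2.25e-06 and 5.36e-07). Timp3, an inhibitor of Adam17, was at 15120 untreated, 7733 with TNF, 4196 with TNC and 4074 with both, with log2 changes of -0.97 for TNF and -1.85 for TNC (adjusted p = 3.28e-06 and 6.84e-10). Adam10, which releases betacellulin, gave -0.24 and -0.26 for TNC without and with TNF (adjusted p = 0.00566 and 0.00308). With TNF present, TNC raised 2 of the list and lowered 4, where 17.6% of all genes were raised and 12.9% lowered. TNF with TNC present raised 2 and lowered 1, where 11% of all genes were raised and 13.6% lowered. The medians of the list in the 4 comparisons lay between -0.0966 and 0.0983, and those of all genes between -0.0626 and 0.00444.

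Of 10 receptor adaptors, TNF without TNC raised 3 and lowered 1, TNF with TNC raised 2 and lowered 1, TNC without TNF raised 1 and lowered 1, and TNC with TNF raised 2 and lowered 2. All genes were called at 36.2%, 24.6%, 33.7% and 30.5% in these comparisons. The list medians lay between -0.0317 and 0.0571. Nck1, which links receptors to the actin skeleton, rose with TNF by 0.73 and 0.66 without and with TNC, and Shc1, which carries the receptor's signal to Ras, gave -0.44 and -0.37. Of 14 genes of receptor down-regulation, TNF without TNC raised 3 and lowered 1, TNF with TNC raised 2 and lowered 5, TNC without TNF raised 5, and TNC with TNF lowered 1. Socs3, better known as an inhibitor of cytokine receptors, averaged 773.2 untreated, 1978 with TNF, 3591 with TNC and 1660 with both. Its TNF change was 1.36 without TNC and -1.13 with it, an interaction of -2.48 (adjusted p = 2.94e-09). Cd82, a membrane tetraspanin, rose with TNF by 1.63 and 0.93 (adjusted p = 1.59e-11 and 1.36e-08). Cbl, the ubiquitin ligase that marks the receptor for breakdown, moved by 0.23 with TNC alone (adjusted p = 0.0132).

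Of 10 inhibitors that act on ERK signalling, TNC without TNF raised 5 and lowered 1, and TNC with TNF raised 4 and lowered 1, with list medians of 0.256 and 0.293. Of all genes, 17.3% and 17.6% were raised in these comparisons and 16.4% and 12.9% lowered. TNF without TNC raised 2 and lowered 3, where 14.9% of all genes were raised and 21.3% lowered. TNF with TNC raised 1 and lowered 2, where 11% of all genes were raised and 13.6% lowered. Dusp6, the cytoplasmic ERK phosphatase, went from 1039 untreated to 2891 with TNC and 2835 with both, while TNF alone gave 1748 (log2 0.75, 1.48 and 0.70 for TNF, TNC without TNF and TNC with TNF; adjusted p = 7.96e-09, 6.61e-13 and 2.08e-08). Spry1, a Sprouty inhibitor of receptor signalling, was at 961.5 untreated, 628.6 with TNF, 1474 with TNC and 1769 with both, a change of 1.48 with TNC in the presence of TNF (adjusted p = 1.43e-07). Spry4 fell with each factor alone, at -1.05 with TNF and -0.73 with TNC (adjusted p = 0.00154 and 0.0152). Dusp4 gave -0.80 and -0.75 with TNF without and with TNC (adjusted p = 1.13e-06 and 1.05e-06).

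Of 14 immediate early genes that EGF is known to induce, TNC raised 9 and lowered 1 without TNF, and raised 10 and lowered 1 with TNF, with list medians of 0.708 and 0.931. Among all genes TNC raised 17.3% and lowered 16.4% without TNF, and raised 17.6% and lowered 12.9% with TNF, with medians of -0.0325 and 0.00444. TNF raised 6 and lowered 5 without TNC, and raised 2 and lowered 6 with it, where 14.9% and 21.3% of all genes, and 11% and 13.6%, were called in these directions. Ier3 averaged 2979 untreated, 8748 with TNF, 15170 with TNC and 17190 with both, log2 changes of 1.56 with TNF and 2.35 with TNC (adjusted p = 1.63e-12 and 5.63e-15). Egr3 fell with TNF from 719.4 to 38.21, a log2 change of -4.31 (adjusted p = 6.12e-10), and Egr1 fell from 6945 to 1781, a change of -1.96 (adjusted p = 3.42e-08). With both factors they stood at 115.9 and 4965, with interactions of 2.64 and 1.49 (adjusted p = 2.54e-05 and 6.98e-05). Fosl1 rose with TNC by 1.67 without and 1.34 with TNF (adjusted p = 1.71e-07 and 3.2e-06). Ier2 rose with TNC by 0.76 and 1.34 (adjusted p = 5.93e-05 and 1.31e-07). Many of these genes also answer to other signals, and the lists do not say which receptor acted.

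**Figure D3:**
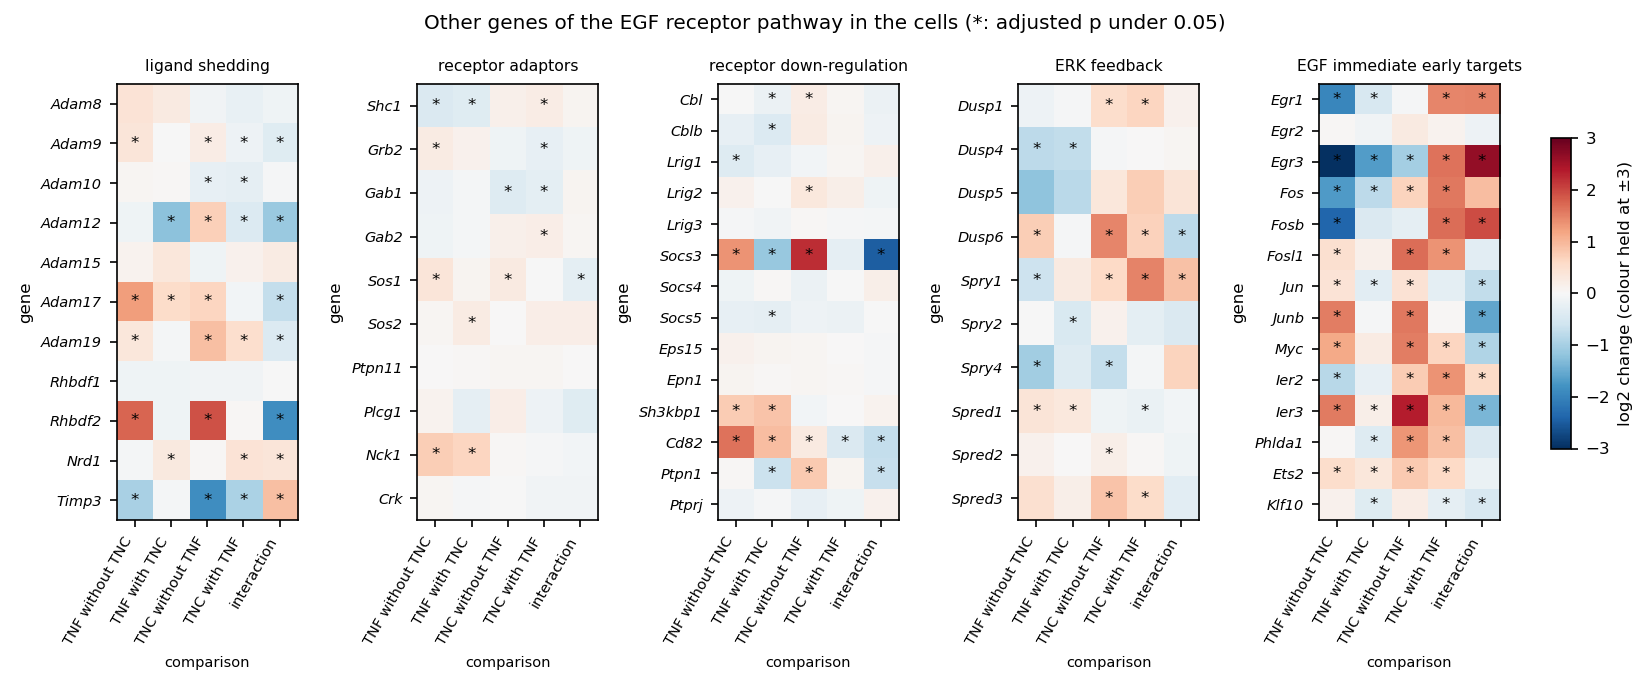
Log2 change (colour, held at 3 in each direction) of the genes of 5 pathway lists in 5 comparisons of the cells, with a star for adjusted p under 0.05. Rows of Timp3 (blue with TNC, -1.85), Dusp6 (red with TNC, 1.48), Socs3 (blue interaction, -2.48) and Egr3 (blue with TNF, -4.31, beyond the colour range) stand out.

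For the members whose group means spanned at least 2-fold, the genes with the most similar log2 signal over the 14 cell arrays were listed. The arrays fall into 4 treatment groups and share their groups and scaling, so these values describe the pattern over groups. Ereg was most like Dstn (Pearson r = 0.967), Nr4a2 (0.955) and Ptch1 (0.945) of 15534 genes. Nr4a2, an orphan nuclear receptor, averaged 318.5, 169.6, 404.3 and 657.8 over untreated, TNF, TNC and both, and Ptch1, the Hedgehog receptor, 1455, 969.4, 2149 and 3014, both in the order of Ereg. Hbegf was most like Lpl, lipoprotein lipase (0.983), AI597479 (0.967) and Pcsk5, a proprotein convertase (0.965). Lpl averaged 5924, 1702, 5551 and 4642, also lowest with TNF alone. Btc was most like Wnk1 (0.974), Anxa4 (0.962) and Brip1os (0.962), and Anxa4 averaged 2939, 4155, 2471 and 2815. Nrg1 was most like Fgd4 (0.981), Sugp2 (0.979) and Prex2 (0.972), and Fgd4 averaged 1007, 464.1, 624.7 and 307.9. Tgfa, Egfr and Errfi1 spanned 1.27-fold, 1.28-fold and 1.89-fold and were not compared in this way.

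In aortic tissue, the main Egfr probe set differed by segment, Btc was lower in the injured infrarenal aorta, and Ereg was highest in 1 pool. Each value is 1 pooled array, so differences have no replicate check. A member was counted in a comparison if its signal was at or above the array median in at least 1 of the 2 pools, and a difference was counted from 2-fold. Nrg1 missed this in 5 of the 12 pairs of pools. Over the 12 pairs, 13 differences reached 2-fold. The untreated TNC-KO infrarenal pool and the WT suprarenal pool with CaAngII stood apart by adrenal genes. The 4 adrenal markers summed to 4533 and 2429 in them, against 268 to 486.4 in the other pools, with Hsd3b1 at 2613 and 1425. The 6 markers of mesothelium and epithelium summed to 1702 in that TNC-KO pool and 415.5 to 669.8 in the others. Their part in the values of the pairs that include these pools was not tested.

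Egfr read 680.5 and 1057 in WT suprarenal aorta without and with CaAngII, and 730.4 and 1241 in TNC-KO suprarenal aorta. The infrarenal pools read 1785 and 2777 in WT and 1531 and 2960 in TNC-KO. All 4 infrarenal pools were above all 4 suprarenal pools. The log2 ratio of infrarenal to suprarenal was 1.39 in untreated WT, 1.07 in untreated TNC-KO, 1.39 in WT with CaAngII and 1.25 in TNC-KO with CaAngII. The 2 next brightest Egfr probe sets gave 0.913 to 1.46 and 0.233 to 0.77 for these pairs, and with all Egfr probe sets averaged the ratios were 0.47 to 0.95 in 3 of the 4 pairs, so the 2-fold size rests on the probe set chosen. The 5 fibroblast markers summed to 41970 to 53550 in suprarenal and 63720 to 85650 in infrarenal pools, and the 4 nerve markers to 16230 to 24010 and 5064 to 7861. In the same order, the 6 endothelial markers summed to 5183 to 7553 and 8229 to 15210. The 7 macrophage markers summed to 13510 to 22620 and 10620 to 41560, ranges that overlap. Their part in the Egfr values was not tested. The segment ratio in untreated TNC-KO was 0.96 with arrays centred on their medians. With CaAngII, this probe set was higher in each of the 4 pairs, by log2 ratios of 0.64 to 0.95. The 2 next brightest Egfr probe sets gave 0.0356 and -0.248 in WT suprarenal aorta and 0.554 and 0.231 in WT infrarenal aorta. With all Egfr probe sets averaged, dim ones included, the ratio was -0.43 in WT suprarenal and -0.0048 in WT infrarenal aorta. The direction in WT suprarenal aorta thus rests on the probe set chosen. In WT infrarenal aorta the brightest probe sets all rose, and the average that includes dim ones did not. At least 2-fold differences between segments, in either direction, were found in 9.54% of genes in untreated WT and 12.9% in untreated TNC-KO. With CaAngII they were found in 20.8% in WT and 16.1% in TNC-KO. Of the members counted, 1 of 6, 3 of 7, 2 of 7 and 4 of 7 reached 2-fold in these pairs, in the same order.

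Btc signals fell short of the untreated level in all 4 pairs with CaAngII. They were 310.6 untreated and 209.9 with CaAngII in WT suprarenal aorta, and 289.1 and 203 in TNC-KO suprarenal aorta. The infrarenal signals were 527.6 and 124 in WT, and 481.8 and 185.9 in TNC-KO, log2 ratios of -2.09 and -1.37. The second Btc probe set gave -2.07 and -2.55 for the infrarenal pairs. In the same infrarenal pools the summed fat markers went from 36800 to 14720 in WT and from 38390 to 18670 in TNC-KO, the smooth muscle markers from 120000 to 67430 and from 121500 to 77370, and the macrophage markers from 11350 to 41560 and from 10620 to 40890. The part of these changes in the Btc values was not tested. Btc was the 1 member of the 6 counted to reach 2-fold with CaAngII in each infrarenal pair, where 17.7% of genes in WT and 17.4% in TNC-KO did so.

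Ereg read 269.8, 242.8, 320.8 and 294.9 in the untreated pools (WT suprarenal, TNC-KO suprarenal, WT infrarenal, TNC-KO infrarenal). With CaAngII the same pools read 383.5, 740.2, 351.4 and 370. The TNC-KO suprarenal pool stood alone, with a log2 ratio of 1.61 to its untreated pair and 0.95 to the WT pool with CaAngII. Hbegf was also highest there, at 1414 against 553.7 to 1126 in the other pools, and Errfi1 was at 4564 against 2537 untreated (log2 ratios to untreated 0.89 and 0.85). In the infrarenal pairs Hbegf was lower with CaAngII, by log2 ratios of -0.60 in WT and -0.92 in TNC-KO. The second Hbegf probe set gave -0.63 and -0.32. With CaAngII, Hbegf in TNC-KO was lower in the infrarenal than in the suprarenal pool by a log2 ratio of -1.24. In the TNC-KO suprarenal pair, 1 of 7 members reached 2-fold, against 5.13% of genes, and in the WT suprarenal pair none did, against 3.61%. In the TNC-KO suprarenal pool with CaAngII the neutrophil markers summed to 34490, against 823.3 to 12200 in the other pools. S100a8 was at 17380 and Csf3r at 1889 in it. Of the 4 neutrophil markers, 3 were at least 2-fold higher than in its untreated pair, while Mpo was at 38.09 against 67.26. The macrophage markers summed to 22620 in it, against 13510 untreated. Of these 7, 4 were at least 2-fold higher than untreated, while Ptprc was at 3126 against 4616. In the infrarenal pools with CaAngII the macrophage markers summed to more, 41560 in WT and 40890 in TNC-KO. In the TNC-KO suprarenal pool with CaAngII the pathway genes Socs3, Ier3 and Adam8 stood at 5096, 4944 and 2146. Its untreated pair read 489.3, 1390 and 201.5. Socs3 and Adam8 were also high in the infrarenal pools with CaAngII, at 4639 and 1229 in WT and 4746 and 1132 in TNC-KO. Untreated, those infrarenal pools read 553 and 194.8 in WT and 378 and 188.1 in TNC-KO. Ier3 was at 2226 and 2122 in the infrarenal pools with CaAngII, against 1673 and 1699 untreated. Whether the Ereg, Hbegf and Errfi1 signals came with neutrophils or macrophages was not tested.

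Errfi1 was higher in infrarenal than in suprarenal pools of the same kind, at 5851 and 4358 without and with CaAngII in WT and 5967 and 5144 in TNC-KO, against 3249, 2960, 2537 and 4564. The log2 ratio reached 2-fold in untreated TNC-KO (1.23), a pair that includes the infrarenal pool with high adrenal markers. In the other 3 pairs it was 0.17 to 0.85. Nrg1 was dim in tissue, at 102.5 to 183.3 in suprarenal and 9.406 to 48.76 in infrarenal pools. Tgfa stayed between 182.4 and 272.5.

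No member reached 2-fold between TNC-KO and WT among those counted in any of the 4 pairs, where 1.86% of genes did in untreated suprarenal, 1.7% in untreated infrarenal, 2.86% in suprarenal with CaAngII and 1.17% in infrarenal with CaAngII pools. Among those counted, the nearest were Ereg (0.95) and Errfi1 (0.62) in the suprarenal pools with CaAngII, Nrg1 (0.84) in the untreated suprarenal pools and Btc (0.58) in the infrarenal pools with CaAngII. With all Tgfa probe sets averaged, 2 of them dim, the suprarenal pools with CaAngII gave 1.08 for Tgfa, past 2-fold, and the infrarenal ones 0.98. Nrg1 differed by -2.26 in the infrarenal pools with CaAngII, below the array median in both.

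**Figure D4:**
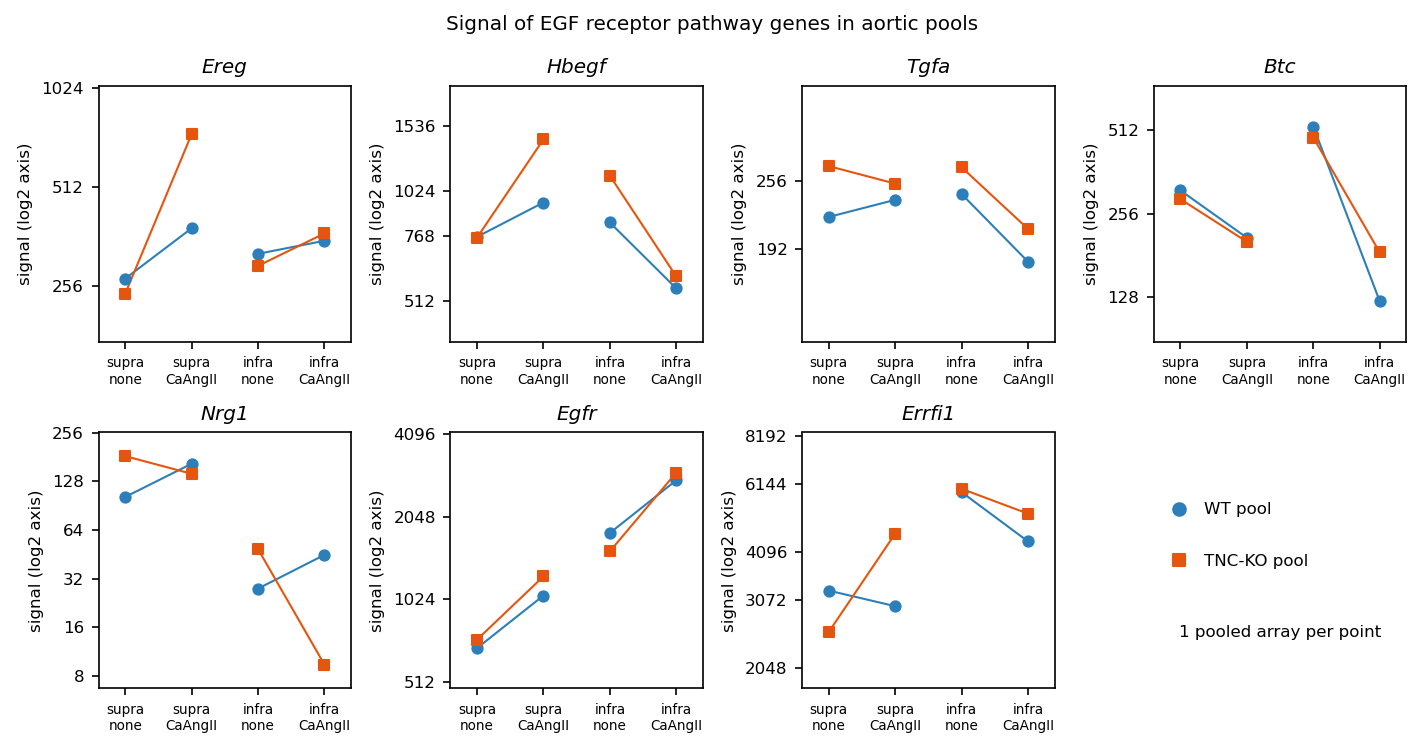
Signal of each gene (vertical axis, log2 scale, not starting at 0 and different in each panel) in the 8 aortic pools, 1 pooled array per point, WT as blue circles and TNC-KO as orange squares, with lines joining the untreated and CaAngII pool of 1 segment. Egfr is higher in infrarenal pools (1531 to 2960) than in suprarenal ones (680.5 to 1241), Btc drops in the infrarenal pools with CaAngII (to 124 and 185.9), and Ereg peaks in the TNC-KO suprarenal pool with CaAngII (740.2).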

How the data were processed

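RNA was measured on Affymetrix mouse arrays, 14 of cells and 8 of pooled tissue. Each deposited value is a linear intensity, made by the authors with Affymetrix Expression Console, per the submitters' processing notes. Version and algorithm: not given in the sources used here. Every array has the same mean over its middle 96% of probe sets, and no quantile normalization had been applied. Of 45101 probe sets, 64 controls, 932 with several symbols and 9160 without a symbol were left out, and 34945 remained for 18193 genes. No columns were identical and none was of another series.

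Values were taken to log2 with no pseudocount. A gene was tested in the cells at or above the array's 30th percentile in at least 3 arrays. A limma model (limma 3.58.1, R 4.3.3) held all 4 cell groups, with an intensity trend and 10 residual degrees of freedom, 7 contrasts each, with Benjamini-Hochberg adjustment over 15534 genes and calls at 0.05. Every adjusted p in the text is limma's, and intervals are at 95%. Other probe sets were fitted at probe-set level. Tissue pools carry no test. Precision is limited by the number of arrays.

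Replicate numbers showed no sign of pairing the cell arrays. After group means were removed, 19 pairs with the same number correlated at -0.0158 to 0.057, none above 0.1. These correlations cannot settle whether a culture was divided over groups. The code was tested on simulated data for TNF without TNC, where 63% of genes changed by 1 and 79% of those changed by 2 on the log2 scale were called, of 200 changed among 15534, and 1.39% of calls were false.

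The members and gene lists were chosen with earlier results of these data known. Named genes are the members with all their probe sets, Tnc, up to 4 called genes per list and comparison with the lowest adjusted p, genes that the background needs, the 3 genes most like each member whose cell means span 2-fold or more, and cell type markers. In the tissue, Socs3, Ier3, Adam8, Nrg4, Erbb3 and the markers named were picked after their values were seen. Alternatives were quantile normalization, centring on the array median, other filters, log2(value + 32), other probe sets, other variance models, fits of the compared groups alone, the replicate number as a block and leaving out each array.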

Additional observations from a re-analysis of the deposited data

Results flagged for a closer look

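The effect of TNF on Ereg differed between cells with and without TNC: the log2 change with TNC minus that without was 1.737 (-0.67 without, 1.06 with, adjusted p = 0.000142 in limma). The same difference for Hbegf was 1.599 (-1.89 without, -0.29 with, adjusted p = 9.75e-08). Leaving out each of the 14 arrays gave 1.58 to 1.87 for Ereg and 1.53 to 1.69 for Hbegf.

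Among 14 sets of 4 arrays examined, 1 array stood apart from the other 3 in 2 cases, both in cells with TNC alone. Tgfa read 673.4 in replicate 3, below 722.6 to 732.5 in the others. Nrg1 read 490.8 in replicate 2, below 672.8 to 693.3 in the others. About 1 in 20 such sets would be picked out by chance.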

How the results depend on the processing

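The counts of members called stayed within 1.5 times of the reported count under every alternative run, except 1: with arrays centred on their medians, both factors against none gave 4 calls, not 7. Leaving out 1 array gave 3 to 4 calls for TNF without TNC, 4 to 5 for TNF with TNC, 4 to 5 for TNC without TNF, 5 to 7 for both against none and 2 to 3 for the interaction. Centring moved the median of all genes by over 0.1, from -0.0626 to 0.0498 for TNF without TNC, from -0.0325 to 0.14 for TNC without TNF and from -0.0571 to 0.152 for both against none, so small changes there are relative to that shift. Under centring, TNC without TNF gave 0.061 for Hbegf and 0.11 for Egfr, on the other side of 0, and the called falls of Hbegf (-0.20), Tgfa (-0.09) and Btc (-0.40) for both against none were lost. With all probe sets of a gene averaged, Egfr gave -0.15 for TNF without TNC and -0.036 for both against none. Single other probe sets turned changes: for TNF without TNC, Errfi1 gave -0.022, Tgfa 0.26 and Egfr -0.12, -0.98, -0.40 and -0.080; for TNF with TNC, Tgfa gave -0.11 and Egfr -0.090. Egfr gave 0.19 for TNC without TNF, -0.50 for TNC with TNF, 0.021 and 0.26 for TNC against TNF (the latter called, adjusted p = 0.0337, against an uncalled -0.21 on the main probe set), -0.36 and -0.010 for the interaction, and, against its call on the main probe set, -0.086 and -0.70 for both against none. Leaving out 1 array moved the Nrg1 interaction between -0.16 and 0.078 and Egfr for TNC without TNF between -0.10 and 0.014. With the replicate number as a block, the Btc interaction passed the threshold (-0.83, adjusted p = 0.0484), and the block changed no other call of a member. That interaction also passed with quantile normalization (0.0235), centring (0.0385), the 50th percentile filter (0.042), log2(value + 32) (0.00927), averaged probe sets (0.00993) and array weights (0.0234). The fall of Hbegf with TNF in the presence of TNC missed it with array weights (0.0501). Tissue counts of 2-fold differences were 12 with centring and 16 with the 30th percentile filter, against 13. The cause of these shifts was not tested.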

Other observations

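Among EGF-family ligands outside the set, Nrg4, a neuregulin that brown fat is known to secrete, had high signal in the tissue. It read 1475 in untreated WT and 1403 in untreated TNC-KO suprarenal aorta, and 988.4 and 705.1 with CaAngII. The infrarenal pools read 1013 and 1300 untreated and 179.4 and 231.6 with CaAngII. The brown fat gene Ucp1 stood at 5716 and 5125 in the same untreated infrarenal pools and at 390.9 and 306.6 with CaAngII. In the suprarenal pools Ucp1 was at 15020 in WT and 10590 in TNC-KO untreated, and at 10640 and 6235 with CaAngII. Untreated, Ucp1 was thus further apart between segments than Nrg4. In the cells Nrg4 was at 23.29 to 33.5 over group means.

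Erbb3, a receptor of Nrg1, read 584.9 to 933.6 in suprarenal pools and was dim in the cells. Infrarenal pools read 363.6 to 607.6 for Erbb3, which overlaps the suprarenal range. The Schwann cell gene Sox10 was at 215.8 to 437 in suprarenal and 128.3 to 239 in infrarenal pools. Mbp, from the same marker list, was at 2791 to 5321 in suprarenal and 3409 to 5515 in infrarenal pools. Each pool is 1 array, and the part of cell mixture in these values was not tested.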
